A study of Mus musculus with 2 samples.

Results

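The genes described here are 10 enzymes of glycolysis: Hk1, Hk2, Gpi1, Pfkp, Aldoa, Tpi1, Pgk1, Pgam1, Pkm and Ldha. They were taken by name, through the current or an older symbol of each probe set, and not by their values. Of the 10 genes, 9 had at least 1 probe set (a group of short probes read together) that named them alone, out of 8251 genes named on the array. Gpi1 had no such probe set and was not analysed here. RNA was taken from 2 clones of mouse mesoangioblasts, D16 and D351, and each clone was hybridised to 1 Affymetrix U74A array. Mesoangioblasts are progenitor cells associated with embryonic vessels. The clones were started from C57BL6 dorsal aorta at embryonic day 9.5, after 5 days as an explant. They were first cloned over mitomycin C-treated embryonic fibroblasts in RPMI with 20% fetal calf serum and then grown on gelatin. No treatment or genetic change is named for either clone, and each was grown by limiting dilution of 1 cell suspension, so a difference between the arrays is a difference between 2 cultures. With 1 array per clone there was no replicate and no test, and values are descriptions of these arrays.

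Glycolysis splits glucose into pyruvate and yields ATP without oxygen. Hexokinase traps glucose as its phosphate, phosphofructokinase commits it to the pathway, and aldolase, triose phosphate isomerase, phosphoglycerate kinase, phosphoglycerate mutase and pyruvate kinase carry the carbon to pyruvate. Lactate dehydrogenase turns pyruvate into lactate and regenerates the NAD that glycolysis consumes. Many of these genes are known targets of the hypoxia-inducible factor HIF-1 and of MYC, and proliferating cells commonly use the pathway heavily.

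The 9 measured glycolytic genes had similar levels in both clones. None differed by 2-fold or more. Among all 6101 measured genes, meaning those with an intensity at or above a floor of 17.4 in either clone, 8.83% were higher in D16 by 2-fold or more and 10.6% were higher in D351 by as much. The log2 ratio of D351 over D16 ran from -0.62 for Ldha to 0.05 for Hk1, with a median of -0.20 against -0.03 for all measured genes. A lower level in D351 was measured for 8 of the 9 genes, and 51.4% of all measured genes had a ratio below 0. At a size of 1.5-fold, 1 of the 9, Ldha, was higher in D16 and 0 were higher in D351, beside 21% and 21.1% of all genes. The measurable part of the error was the spread of log2 ratios between probe sets of the same gene, an SD of 0.52 over 808 genes, which leaves out the spread between cultures. In the main setting the ratios of 6 of the 9 genes were within that SD of 0. Those of Aldoa, Tpi1 and Ldha were beyond it, but not in every scaling, as given below.

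The sign of the small differences depended on how the arrays were scaled to each other. With the arrays scaled on the hybridization controls, which are transcripts added to the sample, every log2 ratio between values above the floor became higher by 0.39 and the median of all genes moved from -0.03 to 0.34. The median of the 9 genes became 0.20, and only 3 of them, Aldoa, Tpi1 and Ldha, had a ratio below 0. Measured against the median of all genes, the median of the members differed by -0.21 to -0.12 on the log2 scale over the main setting and the 10 alternatives of scaling, floor and probe set choice. Much of this narrow range was fixed in advance. A common scaling factor largely cancels in the difference, and another floor left the ratio of each member unchanged. The error of the members' median, taken from the probe set SD, was 0.22 and thus larger than these differences. Ldha, Aldoa and Tpi1 had a negative ratio in each of these settings that gave them a value. All 3 were within the probe set SD of 0 in several scalings, where Ldha was also within 1.5-fold. Their ratios were -0.46, -0.43 and -0.48 after quantile normalization and -0.47, -0.41 and -0.42 after intensity-dependent loess. With scaling on the hybridization controls they were -0.23, -0.16 and -0.15.

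The upstream sequences are shown for the 3 genes with the lowest ratios, Ldha, Aldoa and Tpi1, and for Pgk1 and Hk2. Besides Ldha, Pgk1 and Hk2 had more than 1 match to ACGTG, 1 form of the core of the HIF-binding element. In the RefSeq promoter table for GRCm38.p6, all 10 genes were found, with 15 start sites in all. The 250 bases before each start were searched for ACGTG on both strands, where the reverse strand reads CACGT. The form GCGTG was not searched. For a gene with several starts the window with the most matches is printed. Capitals mark each match.
Ldha, chr7:46845554-46845803, plus strand: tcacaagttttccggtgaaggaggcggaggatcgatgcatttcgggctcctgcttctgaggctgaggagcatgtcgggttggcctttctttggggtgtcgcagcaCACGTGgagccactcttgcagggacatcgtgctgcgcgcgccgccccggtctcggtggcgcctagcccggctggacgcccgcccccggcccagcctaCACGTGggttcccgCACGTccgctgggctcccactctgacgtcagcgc
Aldoa, chr7:126799255-126799504, minus strand: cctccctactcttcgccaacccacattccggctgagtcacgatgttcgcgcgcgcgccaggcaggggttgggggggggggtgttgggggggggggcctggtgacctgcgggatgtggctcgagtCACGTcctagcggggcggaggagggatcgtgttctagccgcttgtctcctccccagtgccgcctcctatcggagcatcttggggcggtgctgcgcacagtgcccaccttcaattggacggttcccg
Tpi1, chr6:124814159-124814408, minus strand: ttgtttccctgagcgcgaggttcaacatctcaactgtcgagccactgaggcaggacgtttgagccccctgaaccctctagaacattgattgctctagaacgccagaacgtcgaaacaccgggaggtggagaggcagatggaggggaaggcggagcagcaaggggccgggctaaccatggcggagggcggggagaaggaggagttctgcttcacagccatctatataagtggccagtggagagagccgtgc
Pgk1, chrX:106186850-106187099, plus strand: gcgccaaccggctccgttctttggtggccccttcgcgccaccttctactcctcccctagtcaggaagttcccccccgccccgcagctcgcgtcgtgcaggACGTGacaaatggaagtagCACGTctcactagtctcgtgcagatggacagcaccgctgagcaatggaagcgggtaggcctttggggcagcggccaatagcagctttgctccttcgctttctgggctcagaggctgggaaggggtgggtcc
Hk2, chr6:82774455-82774704, minus strand: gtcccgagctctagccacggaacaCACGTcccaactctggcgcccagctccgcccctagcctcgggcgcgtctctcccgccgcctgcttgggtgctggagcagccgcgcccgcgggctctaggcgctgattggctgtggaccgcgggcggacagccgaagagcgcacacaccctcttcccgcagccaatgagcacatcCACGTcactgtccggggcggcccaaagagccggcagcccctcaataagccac

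The Ldha window held ACGTG on either strand at 3 places, beginning 145, 48 and 34 bases before the start. The first and the second of these are CACGTG, the palindrome bound by MYC, in which both strands match. The Pgk1 window held 2 matches, at 150 and 131 bases, and Hk2 held 2, at 226 and 52. Aldoa, Pgam1 and Pkm had 1 match each in the window counted, at 126, 114 and 75 bases. The windows of Tpi1, Pfkp, Hk1 and Gpi1 held no ACGTG on either strand, and GCGTG was not counted. In all, 6 of the 10 genes had a match in at least 1 window, against 18.5% of the 27018 genes in the table, and CACGTG was found for 1 gene, Ldha, against 6.86%. A gene with several windows has more chances of a match. By window, 7 of the 15 held ACGTG, against 16.57% of all windows. The genes in the table were not matched to these 10 for expression or base composition. Among these few genes, those with several matches and those without one were found at both low ratios and ratios near 0. A link between matches and ratios was not tested. Ldha, with 3 places, and Tpi1, with none, had log2 ratios of -0.62 and -0.54, while Pgk1, with 2, had -0.12. The GC-rich SP1 box GGGCGG, searched on both strands, stood before 8 of the 10 genes, against 35.4% of all genes. By window it was in 9 of the 15, against 32.75% of all windows. A match describes these letters and was not tested as a binding site.

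**Figure D1:**
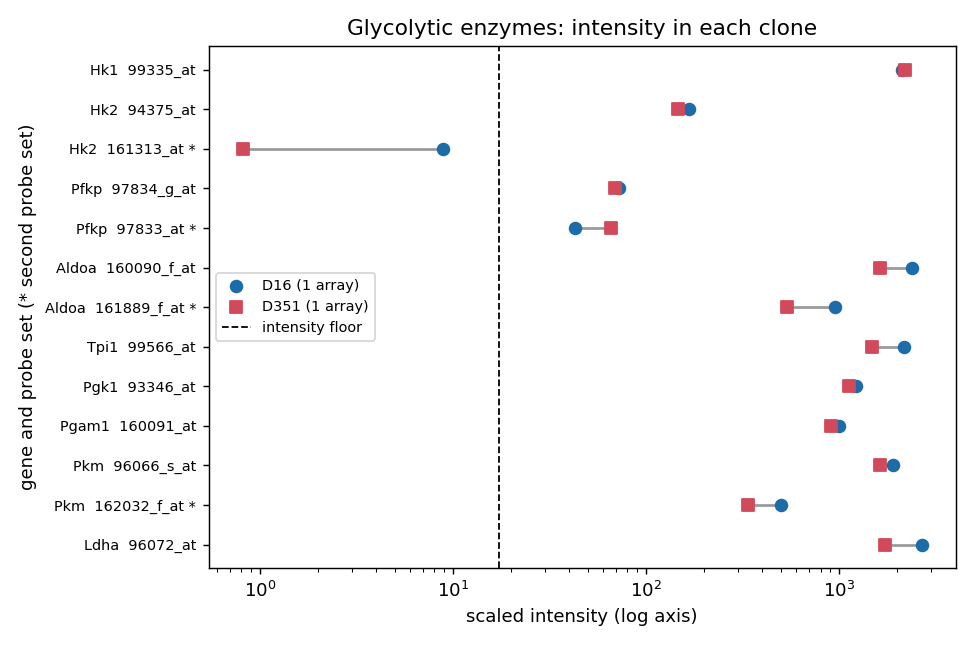
Scaled intensity of every probe set of the glycolytic genes in D16 (circles) and D351 (squares), on a log axis, with the floor of 17.4 as a dashed line and 1 array per point. The pairs above the floor lie close together. D16 lies visibly to the right for Ldha, Aldoa, Tpi1 and the second probe set of Pkm, and D351 for the second probe set of Pfkp. The points of the second probe set of Hk2 lie far apart, at 8.84 and 0.81, and below the floor in both clones.

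Hexokinases catalyse the entry step. Hk1, the form found in most tissues and bound to mitochondria, had a scaled intensity of 2110 in D16 and 2178 in D351, a log2 ratio of 0.05. Among the 9 genes it alone had the higher level in D351. Hk2, the inducible form known from muscle and tumours, measured 167 in D16 and 145.5 in D351, a log2 ratio of -0.20. Its other probe set was below the floor in both clones, at 8.84 and 0.81, and gave no ratio. The difference between the ratios of Hk1 and Hk2 is smaller than the spread between probe sets.

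Phosphofructokinase is the main control point of the pathway, and Pfkp encodes its platelet form. Its brighter probe set measured 72.4 in D16 and 69.3 in D351, a log2 ratio of -0.06. The other probe set, designed from the same sequence record, measured 42.8 and 65.4, a log2 ratio of 0.61. The probe sets thus differed in sign, and Pfkp has no settled direction. The paralogues of the liver and muscle type, which were on the list of other isoforms, were also within 1.5-fold: Pfkl measured 343 and 451 (log2 ratio of 0.39), and Pfkm 149 and 145.5 (-0.03).

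Aldolase A splits fructose bisphosphate into 2 trioses. Aldoa measured 2364 in D16 and 1617 in D351, a 1.46-fold higher level in D16, and its second probe set measured 946 and 537, or 1.76-fold. Both probe sets pointed the same way. Both are of a type, marked by the suffix f, that can match transcripts of related genes. Triose phosphate isomerase, which interconverts these trioses, had a closely similar ratio: Tpi1 measured 2163 in D16 and 1484 in D351, 1.46-fold higher in D16.

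The next members in the pathway, Pgk1 and Pgam1, had ratios close to 0. The step of Gapdh comes before them, but Gapdh was not a member, and its values are given with the flagged results below. Pgk1, the phosphoglycerate kinase that makes the first ATP of the pathway and lies on the X chromosome, measured 1223 in D16 and 1129 in D351, a log2 ratio of -0.12. Pgam1, the mutase that moves the phosphate, measured 994 and 906, a log2 ratio of -0.13. Both genes were measured by a single probe set without a suffix, and both ratios turned positive, to 0.28 and 0.26, with the arrays scaled on the hybridization controls.

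Pyruvate kinase makes pyruvate and the second ATP. Pkm measured 1891 in D16 and 1624 in D351 by its brighter probe set, a log2 ratio of -0.22, and 496 and 338 by the other, a log2 ratio of -0.55. Both probe sets carry suffixes of shared matching, and neither was used to tell the M1 and M2 splice forms apart. Ldha, the A subunit of lactate dehydrogenase, had the lowest ratio of the 9 genes. It measured 2665 in D16 and 1728 in D351, a 1.54-fold higher level in D16, by its only probe set. The B subunit gene Ldhb, which is on the isoform list, measured 169 in D16 and 128 in D351, a log2 ratio of -0.40 in the same direction.

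**Figure D2:**
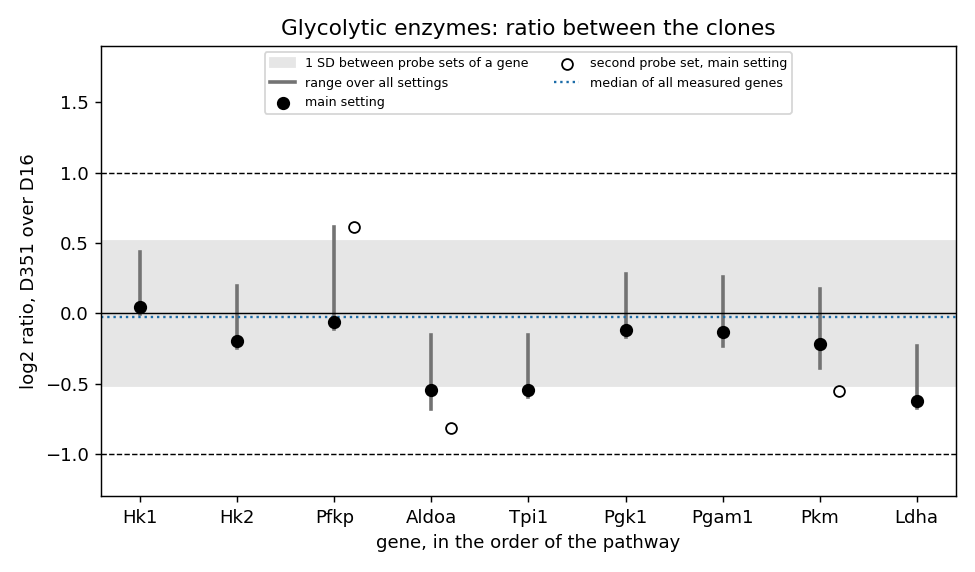
Log2 ratio of D351 over D16 for each glycolytic gene in pathway order (filled points), with the range over the main and alternative settings (bars), the second probe set where it was above the floor (open points), the probe set SD of 0.52 (grey band), the median of all measured genes (dotted) and 2-fold (dashed). The ranges of Aldoa, Tpi1 and Ldha lie below 0 and those of the other 6 genes cross it.

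Most of these genes are bright on the array, so they were also set beside genes of like brightness, a range chosen after the values were seen. Of the 9 genes, 7 had mean intensities from 950 to 2197. They had a median log2 ratio of -0.22, and 6 of the 7 were below 0. In the same range lay 176 other genes, with a median of 0.03, quartiles at -0.45 and 0.47, and 48.9% of ratios below 0. A difference of 1.5-fold or more toward D16 was measured for 19.9% of them. The ratio of each of the 7 glycolytic genes but Aldoa, Tpi1 and Ldha was therefore inside the middle part of the genes of that brightness.

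**Figure D3:**
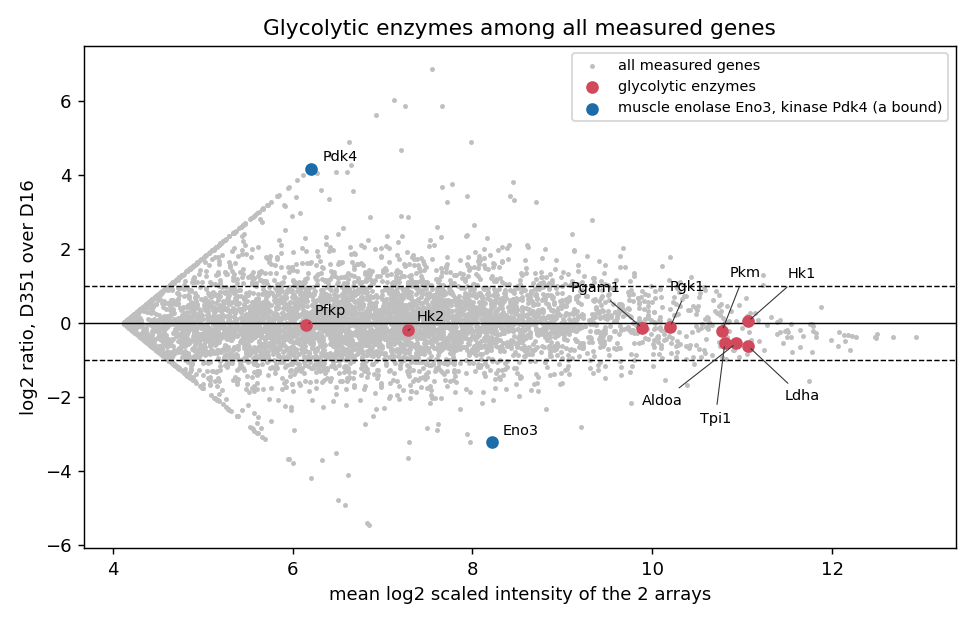
Log2 ratio of D351 over D16 against the mean log2 intensity of the arrays for all 6101 measured genes (grey), with the 9 glycolytic genes in red, Eno3 and Pdk4 in blue and 2-fold as dashed lines. The red points lie between -0.62 and 0.05, inside the dashed lines, while Eno3 lies at -3.22 and Pdk4, below the floor in D16, at a bound of 4.17.

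Other forms of the glycolytic enzymes stood on a list of 19 genes, of which 14 had a probe set and 9 were measured. Past 2-fold were 2 of the 9, both with the higher level in D16, beside 8.83% of all measured genes. The median log2 ratio was -0.32. The large exception was Eno3, which encodes the muscle form of enolase. Eno3 measured 908 in D16 and 97.6 in D351, 9.3-fold higher in D16. The neuronal enolase gene Eno2 measured 78.2 and 62.7, a log2 ratio of -0.32. The other gene past 2-fold was Gapdhs, the sperm form of glyceraldehyde phosphate dehydrogenase, at 35.2 in D16 and below the floor in D351. It was thus at least 2.02-fold higher in D16, from a level near the floor, by a probe set with a suffix. The probe set of Gapdhs without a suffix was below the floor in both clones, at 1.965 and 2.952. Gapdhs was 1.86-fold with a pseudocount of 16 in place of the floor and 1.91-fold after intensity-dependent loess. With the floor at the 25th percentile it was 3.06-fold. Bpgm, which makes the haemoglobin ligand bisphosphoglycerate, had a log2 ratio of 0.67, and Adpgk, an ADP-dependent glucokinase, 0.34. Galm, the mutarotase of sugars, had -0.58 by its brightest probe set, while its other measured probe sets ran from -1.10 to -0.05. The remaining 5 genes with a probe set were below the floor in both clones.

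Transport into and out of the pathway was measured by 4 of 9 listed genes, with 0 past 2-fold in either direction and a median log2 ratio of -0.52. The glucose transporter gene Slc2a1 measured 137 in D16 and 83.6 in D351, 1.64-fold higher in D16. Bsg, the chaperone of the lactate transporters, measured 955 and 1283, a log2 ratio of 0.43. The lactate transporter gene Slc16a1, named after its values were seen, was near the floor at 25.9 and 18.5.

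Among regulators of glycolysis, 8 of 18 listed genes were measured, with a median log2 ratio of 0.14. Only Myc was past 2-fold, at 160 in D16 and 74.1 in D351, 2.16-fold higher in D16, and 1.95-fold with the pseudocount. Hif1a, the oxygen-regulated subunit of HIF-1, measured 1212 in D16 and 1538 in D351, a log2 ratio of 0.34, with 0.20 for its other probe set. Egln2, a prolyl hydroxylase that marks HIF for destruction, had a log2 ratio of -0.28. Genes known to be induced by hypoxia but outside glycolysis had a median log2 ratio of 0.45 over 15 measured genes. Past 2-fold were 2 of the 15, both toward D351, beside 10.6% of all measured genes. P4ha1, a collagen prolyl hydroxylase subunit, measured 150 in D16 and 421 in D351, 2.81-fold higher in D351. Vegfa, the vascular growth factor, measured 34.7 and 75.8, 2.19-fold higher in D351. It was not past 2-fold with the floor at the 60th percentile, at 1.42-fold, or with the pseudocount, at 1.81-fold. Lox, a lysyl oxidase, and Hmox1, haem oxygenase, had log2 ratios of 0.42 and 0.11. The direction of the list was not common to all of its genes, since 4 of the 15 had a ratio below 0.

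**Figure D4:**
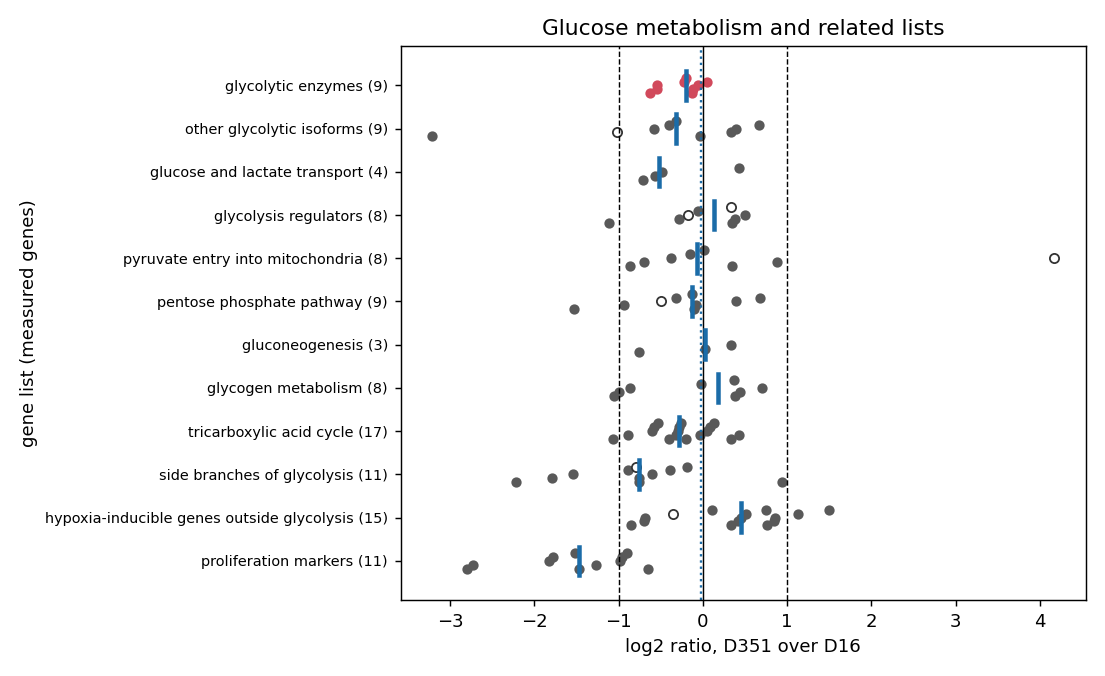
Log2 ratio of D351 over D16 for each measured gene (points, open where 1 clone was below the floor) in the glycolytic enzymes and 11 other lists, with the list median (bar), the median of all genes (dotted) and 2-fold (dashed). The glycolytic enzymes lie close together around -0.20, whereas the other isoforms reach -3.22 and pyruvate entry reaches a bound of 4.17.

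Pyruvate can leave glycolysis for the mitochondria through the pyruvate dehydrogenase complex, which is switched off by its kinases. Of 14 listed genes 8 were measured, with a median log2 ratio of -0.07. The kinase gene Pdk4 was below the floor in D16 and measured 314 in D351, at least 18.0-fold higher in D351. That bound moves with the floor and was 5.89-fold with it at the 60th percentile. With the floor at the 25th percentile Pdk4 was above it in both clones, and the ratio was 29.0-fold. The subunit genes of the enzyme itself had log2 ratios of 0.02 for Pdha1 (550 and 556) and -0.38 for Pdhb (455.7 and 350.6). In the tricarboxylic acid cycle, 17 of 20 listed genes were measured, with a median of -0.28 and 1 past 2-fold. That gene was Idh2, a mitochondrial isocitrate dehydrogenase, at 477 in D16 and 228 in D351. Mdh2, mitochondrial malate dehydrogenase, had a log2 ratio of -0.60, and Cs, citrate synthase, -0.28.

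Routes that branch from glycolytic intermediates held differences past 2-fold, each with the higher level in D16. Side branches had 11 measured genes of 18 listed, with a median log2 ratio of -0.76. The ratio was below 0 in 10 of them, beside 51.4% of all measured genes, and past 2-fold, toward D16, in 3, beside 8.83%. All 3 make serine or use it: Shmt1, a serine hydroxymethyltransferase, measured 98.1 in D16 and 21.1 in D351, which is near the floor, 4.65-fold higher in D16. With the floor at the 60th percentile it was not past 2-fold, at 1.84-fold, and the pseudocount gave 3.08-fold. Psph, the phosphatase of the last step of serine synthesis, measured 618 and 179, 3.46-fold higher in D16. Psat1, the aminotransferase before it, measured 1934 and 664, 2.91-fold higher in D16. Phgdh, which opens that branch from phosphoglycerate and was named after its values were seen, measured 42.1 and 24.8. In the pentose phosphate pathway, with 9 of 11 genes measured and a median of -0.13, 1 was past 2-fold: Taldo1, transaldolase, measured 374 in D16 and 129 in D351. Tkt, transketolase, measured 708 and 370, a log2 ratio of -0.94, and Pgls, a lactonase of the same pathway, 0.39.

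Glycogen metabolism had 8 of 18 listed genes measured and a median log2 ratio of 0.17. The single gene past 2-fold was Pgm1, the phosphoglucomutase that links glycogen to glycolysis, at 647 in D16 and 311 in D351. Gaa, the lysosomal glycogen glucosidase, had 0.70. In gluconeogenesis 3 of 7 genes were measured with 0 past 2-fold, where Pck2, mitochondrial phosphoenolpyruvate carboxykinase, had -0.75 and G6pc3, a glucose phosphatase, 0.33. Over the 10 lists of glucose metabolism and hypoxia, 92 genes were measured. Their median was -0.19, and past 2-fold were 9 with the higher level in D16 and 3 with the higher level in D351. Of all measured genes, 8.83% were past 2-fold toward D16 and 10.6% toward D351. With the arrays scaled on the hybridization controls, the medians of the isoform, pyruvate entry, pentose phosphate and tricarboxylic acid lists turned positive (0.07, 0.33, 0.26 and 0.11). Those of transport and the side branches stayed negative, at -0.13 and -0.37, and those of the remaining 4 lists stayed positive. In that scaling 5 of the 9 genes, Eno3, Shmt1, Psph, Psat1 and Taldo1, were still past 2-fold toward D16, while Myc, Idh2, Pgm1 and Gapdhs were not. Past 2-fold toward D351 were 12 genes of these lists. Among all 6104 genes measured in that scaling, 250 were past 2-fold toward D16 and 1214 toward D351.

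Other properties of the arrays differed between the clones alongside these values, and their part in them was not tested. All 11 measured proliferation markers of 13 listed had a ratio below 0, and 7 of them were past 2-fold. Their summed level was 4926 in D16 and 1602 in D351. Of all measured genes, 51.4% had a ratio below 0, 8.83% were past 2-fold toward D16 and 10.6% toward D351. Fibroblast markers had a summed level of 10838 in D16 and 15578 in D351, and 6 of the 11 were past 2-fold, 5 toward D351 and 1 toward D16. Of the markers for the labelled cell type, Kit and Kdr were below the floor in both clones, Vim was near it at 22.3 and 23.5, and Thy1 was at 1534 and 1041. Past 2-fold were 3 of the 9 measured markers on that list, 2 toward D16 and 1 toward D351. Cd34 was at least 27.3-fold higher in D16, a bound that ran from 8.92-fold with the floor at the 60th percentile to 65.3-fold with it at the 25th. Gata2 was 2.06-fold higher in D16, and 1.57-fold with scaling on the hybridization controls and 1.82-fold with the pseudocount. Pdgfrb, a receptor of pericytes and mesenchymal cells, measured 54.3 in D16 and 196.6 in D351, 3.62-fold higher in D351. Acta2, smooth muscle actin, measured 939.5 and 1686, 1.79-fold higher in D351, and Pdgfra, Eng and Cd44 were within 1.5-fold by their brightest probe sets. Markers of blood, epithelial and endothelial cells had summed levels of 107, 135 and 80.1 in D16 and 110, 93.4 and 110 in D351, with Ptprc and Epcam below the floor in both. Past 2-fold on these lists were the endothelial marker Flt1, at least 3.80-fold, and the blood marker Cd68, at least 2.12-fold, both toward D351. Skeletal and cardiac muscle markers summed to 362 and 558. Of these, Des was at least 2.36-fold and Actc1 2.27-fold higher in D351, and Gata4 was 2.43-fold higher in D16. Intensities reached the floor in 60.6% of the gene probe sets on the D16 array and in 59.4% on the D351 array. The ratio of 3' to 5' signal of the Gapdh control was 1.56 in D16 and 1.445 in D351. For the beta-actin control the same ratio differed more, at 1.81 against 1.365. In such bulk RNA, fewer cells of a type and less RNA per cell cannot be told apart.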

How the data were processed

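The authors deposited 1 table of intensity values on a linear scale, with 12488 probe sets and 1 column per clone. How it was background-corrected and scaled, and with what software, was not given in the sources used here. Deposited medians were 31.8 and 29.7. The platform annotation gave 10833 of the 12422 non-control probe sets a single symbol, 10817 of them updated by Entrez number to RefSeq GRCm38.p6; it gave several to 396 and none to 1193. Arrays were scaled to a common median (factors 0.983 and 1.02). Values below the 40th percentile, an intensity of 17.4, were set to it; a ratio against such a value is a lower bound. The probe set with the highest mean stood for a gene. Named were all members, their measured paralogues, and of each other list up to 4 genes past 2-fold and the 2 with the highest level. Members and lists were chosen with earlier results of these data known. The number of arrays limits the precision. The functions were tested on simulated data. Python 3.11.15, numpy 2.4.6, pandas 2.3.3, statsmodels 0.14.6 and matplotlib 3.10.9 were used.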

Additional observations from a re-analysis of the deposited data

Results flagged for a closer look

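Gapdh, which follows aldolase and triose phosphate isomerase in the pathway, was represented by control probe sets and by probe sets with several symbols, which lie outside the comparison of genes. The 3' control of Gapdh measured 4893 in D16 and 3877 in D351, a log2 ratio of -0.34. The middle control had -0.31 and the 5' control -0.22. Of the other probe sets, the brighter, with the suffix f, measured 3255 in D16 and 2417 in D351, a log2 ratio of -0.43. The dimmer, with the suffix r, measured 78.2 and 64.7, a log2 ratio of -0.27. They are given because signal appears there in data the comparison did not use.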

How the results depend on the processing

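No paired analysis was possible because the clones were not replicated, and leaving out an array would leave nothing to compare. Of 88 alternative values of the members, 87 moved by less than the probe set SD. Many of these could not have moved past it. The other floor percentiles and no floor gave each member its main ratio. The shift of 0.39 from the hybridization controls is itself below the SD of 0.52, although Hk2, Pfkp, Pgk1, Pgam1 and Pkm changed sign with it. Pfkp moved to 0.61 when probe sets with a suffix were left out, because its other probe set then stood for it. That setting has no value for Aldoa and Pkm, and gave 5 members below 0. With scaling on the hybridization controls the median of the members was 0.20 and 3 members were below 0. Of the other lists 5 genes were then past 2-fold toward D16 and 12 toward D351, beside 250 and 1214 of all 6104 genes. At 1.5-fold, 1 member was higher in D16. Of the other lists 26 genes were higher in D16 and 12 in D351 at 1.5-fold, beside 21% and 21.1% of all genes. At 4-fold these list counts were 2 and 1, beside 79 and 139 of all 6101 genes. Of 277 values of the other named genes, 268 moved by less than the SD, and the hybridization control shift of 0.39 was again below it. The 12 genes past 2-fold kept their sign in all 118 of their values. A change of sign was hardly possible for them, since they were picked for ratios well beyond the shift of 0.39. Gapdhs, Myc, Idh2, Pgm1, Shmt1 and Vegfa were not past 2-fold in at least 1 setting. Of the 159 values of genes within 2-fold, 6 changed sign, in 4 genes: Cs, Egln2 and Pdhb turned positive with scaling on the hybridization controls, at 0.11, 0.11 and 0.01, and Pdha1 turned negative in 3 settings.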
